A study of Rattus norvegicus with 10 samples.

Results

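Transcripts of 6 cytokine genes, Il6, Il1b, Il1a, Tnf, Il1rn and Il10, were examined in the gastric mucosa of Sprague Dawley rats given non-steroidal anti-inflammatory drugs (NSAIDs). The genes were taken by their Ensembl identifiers, with the chromosome of each checked, and they are 6 of the 32623 genes listed in each count table. Total RNA was sequenced after depletion of ribosomal RNA in 10 libraries, 2 in each of 5 groups: honokiol (40 mg/kg, intraperitoneal) given 30 min before oral indomethacin (48 mg/kg), indomethacin alone at the same dose, diclofenac at 75 mg/kg, aspirin at 400 mg/kg, and controls whose labels name no treatment. The labels give 4 h for the 3 groups that received an NSAID alone and 0.5 h for the honokiol group, which equals the lead of honokiol over indomethacin, so that the sampling time of that group rests on the general protocol. Honokiol alone and vehicle were not analysed here, and neither the sex nor the age of the rats is given.

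Cytokines are small secreted proteins by which damaged tissue and immune cells signal to one another. Interleukin 1 alpha and interleukin 1 beta, the products of Il1a and Il1b, bind the same receptor and start inflammatory signalling through MyD88 and NF-kB, and tumour necrosis factor (Tnf) reaches NF-kB through receptors of its own. Interleukin 6 is made downstream of these signals and acts through gp130 and STAT3. A pair of regulators completes the set: the IL-1 receptor antagonist encoded by Il1rn occupies the IL-1 receptor without signalling, and interleukin 10 restrains cytokine production by macrophages. In the stomach, NSAIDs inhibit cyclooxygenases and so lower the prostaglandins that protect the mucosa.

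The identity of the 6 genes was checked against the RefSeq gene table of rat build GRCr8, in which all 6 symbols lie on the chromosome given in the count tables. The sources used here do not name the build of the count tables. In their coordinates, Il6 (ENSRNOG00000010278) spans chromosome 4 from 3043231 to 3047807, a length of 4577 nt that is the same in RefSeq. Il1a (ENSRNOG00000004575, 121825412 to 121836086) and Il1b (ENSRNOG00000004649, 121876263 to 121882726) are neighbours on chromosome 3, separated by 40176 nt. Il1rn (ENSRNOG00000005871) lies on the same chromosome from 1452644 to 1468614, Il10 (ENSRNOG00000004647) on chromosome 13 from 47739526 to 47743392, and Tnf (ENSRNOG00000055156) on chromosome 20 from 5189390 to 5192000. No other listed gene overlapped any of the 6.

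RefSeq promoter windows of build GRCr8 were at hand for 5 of the 6 genes, all but Il10. The 250 bases before the start of Il6, Il1b, Tnf and Il1rn are shown because these genes span the range of responses described below. Capitals mark matches, on either strand, to the kappa-B consensus, to AP-1 (TGANTCA), C/EBP (TTGCNNAA), the cAMP response element CRE (TGACGTCA) and the TATA box (TATAAA).
Il6, chr4:5894576-5894825, minus strand: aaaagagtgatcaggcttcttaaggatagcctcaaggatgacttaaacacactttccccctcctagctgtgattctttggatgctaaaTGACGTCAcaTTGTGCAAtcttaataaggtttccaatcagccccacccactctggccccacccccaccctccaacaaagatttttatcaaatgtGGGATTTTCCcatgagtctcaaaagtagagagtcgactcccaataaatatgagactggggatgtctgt
Il1b, chr3:137036582-137036831, minus strand: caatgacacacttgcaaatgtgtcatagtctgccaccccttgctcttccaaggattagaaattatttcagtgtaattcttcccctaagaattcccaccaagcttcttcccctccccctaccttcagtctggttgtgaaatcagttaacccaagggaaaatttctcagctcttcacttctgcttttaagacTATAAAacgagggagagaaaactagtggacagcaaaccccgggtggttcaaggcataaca
Tnf, chr20:3626435-3626684, plus strand: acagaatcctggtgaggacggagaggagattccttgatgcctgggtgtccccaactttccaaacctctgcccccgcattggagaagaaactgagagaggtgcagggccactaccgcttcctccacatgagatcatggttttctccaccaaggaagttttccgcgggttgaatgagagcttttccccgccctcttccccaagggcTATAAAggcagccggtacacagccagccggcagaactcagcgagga
Il1rn, chr3:27520072-27520321, plus strand: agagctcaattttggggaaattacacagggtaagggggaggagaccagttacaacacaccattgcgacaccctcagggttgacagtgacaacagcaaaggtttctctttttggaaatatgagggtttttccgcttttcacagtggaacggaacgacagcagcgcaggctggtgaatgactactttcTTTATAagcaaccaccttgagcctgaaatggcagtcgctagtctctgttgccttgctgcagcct
The Il6 window held 1 match each to CRE (first base at position -162 from the start), to C/EBP (position -152) and to kappa-B (position -68), none of which shared a base with another. Windows with such matches made up 1.59%, 9.22% and 6.33% of all 33469 rat promoter windows of this length. The windows of Il1b, Tnf and Il1rn held none of these 3 motifs and no AP-1 match, but 1 TATA box match each, a motif found in 12.9% of all windows. The Il1a window, not shown, held an AP-1 match at position -12 (6.34% of all windows) and 2 TATA box matches. A match describes letters and not occupancy by a factor.

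The libraries held 23892226 to 44977459 counts on 19478 to 20722 genes. The labels do not state whether both libraries of a group stem from different rats, so a p-value here covers only the spread between libraries, which may be technical. Reads on the Y chromosome, summed over 7 features, numbered 2733 to 4438 in 4 libraries (both honokiol plus indomethacin libraries and replicate 1 of indomethacin and of control) and at most 47 in the other 6, and calls are therefore also given with a term for Y reads in the model. The deposited tables end in 2 empty lines for diclofenac and aspirin and in 1 for all other groups, and any difference in handling between these sets of libraries cannot be told apart from the drugs. The files give no gene names and the reference table holds 0 rat Ensembl identifiers, so receptors and signalling genes of these cytokines, and the markers that would check the labelled epithelial cells, were not analysed here. The labels name gastric mucosa as tissue and epithelial cells as cell type, and their protocol describes collection of mucosal tissue with no step that separates cells. In such bulk RNA more cells of a kind and more RNA per cell cannot be told apart.

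Il6 transcripts were counted in every library of NSAIDs given alone and were at or near 0 elsewhere. Il6 had 5 and 1 counts in the honokiol plus indomethacin libraries, 123 and 274 with indomethacin, 138 and 436 with diclofenac, 58 and 278 with aspirin, and 0 counts in both controls. Scaled to CPM, counts relative to a common library size, with TMM factors, which adjust library totals for composition, these were 0.162 and 0.0374 CPM with honokiol plus indomethacin, 3.43 and 7.04 CPM with indomethacin, 3.13 and 10.4 CPM with diclofenac, and 2.13 and 6.58 CPM with aspirin, while 0 counts allow up to 0.0947 and 0.1 CPM in the controls. All 6 libraries of the NSAIDs given alone lay above all 4 others, and the 3 NSAID groups overlapped one another. The share of all genes that separate these libraries in this way was not determined, here or for the genes below.

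Summed Il6 counts per library size were set against a control sum of 3 counts, the limit that 0 allows. This gave ratios of 109 (indomethacin), 137 (diclofenac) and 99.4 (aspirin). Such ratios allow for the 0 in controls only. They make no allowance for counting error or the spread between libraries in the drug groups, and so are no lower bounds. Differences were tested over 16346 genes by quasi-likelihood in edgeR, with a call at a Benjamini-Hochberg adjusted p under 0.05. Il6 rose with diclofenac (adjusted p = 0.023) and with aspirin (0.021), but the comparison with indomethacin did not pass (0.088), and whether the drugs differ was not tested, since their doses differ. The same comparisons by DESeq2 gave adjusted p-values of 9.8e-07, 5.6e-06 and 6.9e-06. With a term for Y reads the edgeR adjusted p was 0.081 for diclofenac and 0.072 for aspirin. Leaving out a library ended the diclofenac call without control replicate 1 (0.12), control replicate 2 (0.058) or either honokiol plus indomethacin library (0.054 each), ended the aspirin call without control replicate 1 (0.097) or 2 (0.054), and brought indomethacin under the threshold without diclofenac replicate 1 (0.019) or 2 (0.011).

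**Figure D1:**
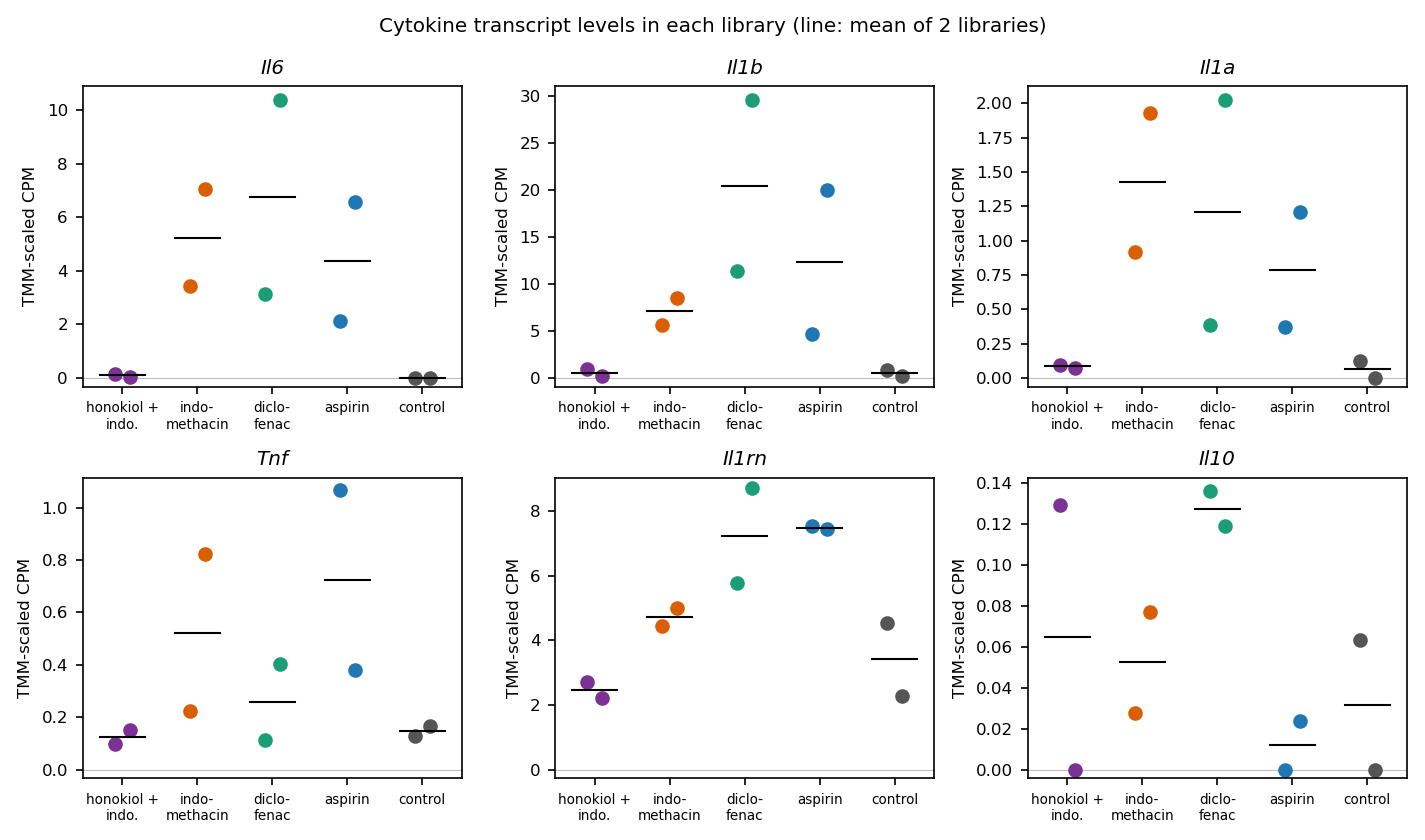
TMM-scaled CPM of the 6 cytokine genes in each of the 10 libraries, with a separate linear axis per gene; points are libraries (replicate 1 left, replicate 2 right) and lines are means of 2 libraries. For Il6, Il1b and Il1a the 6 libraries of NSAIDs given alone lie above the honokiol plus indomethacin and control libraries, a pattern whose share among all genes was not determined. Il1rn varies less, and Il10 is at most 0.136 CPM in every library.

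Il1b, a product mainly of activated myeloid cells, was likewise higher in all libraries of NSAIDs given alone than in the 4 others. The CPM were 0.939 and 0.187 with honokiol plus indomethacin, 5.66 and 8.55 with indomethacin, 11.3 and 29.6 with diclofenac, 4.71 and 20 with aspirin, and 0.821 and 0.234 in controls. The lowest of the NSAID libraries, an aspirin one, stood above the highest control and above both honokiol plus indomethacin libraries. From low to high the group means were 0.527 ± 0.415 in control, 0.563 ± 0.532 with honokiol plus indomethacin, 7.11 ± 2.05 with indomethacin, 12.3 ± 10.8 with aspirin and, highest, 20.5 ± 12.9 with diclofenac (SD, n = 2 each), and only the step between honokiol plus indomethacin and indomethacin separated neighbours in this order without overlap.

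Il1b rose with diclofenac, by 5.25 ± 1.11 in log2 units (SE, adjusted p = 0.042 by edgeR), and with aspirin, by 4.54 ± 1.1 (SE, adjusted p = 0.039 by edgeR). With indomethacin it differed from control by 3.73 ± 1.09 in log2 units (SE, adjusted p = 0.28 by edgeR), which did not pass. DESeq2 gave adjusted p-values of 7.2e-05 with diclofenac, 0.00076 with aspirin and 0.032 with indomethacin. Both edgeR calls were close to the threshold: with the term for Y reads the adjusted p was 0.14 for diclofenac and 0.13 for aspirin, and the log2 fold changes were 5.29 and 4.58. The diclofenac call was lost without any 1 of the 8 libraries other than aspirin (adjusted p 0.064 to 0.17) and the aspirin call without any 1 of the 8 other than diclofenac (0.056 to 0.14). Log2 fold changes over these omissions lay between 4.4 and 6.46 for diclofenac and between 3.13 and 5.75 for aspirin, the extremes coming without control replicate 1 at the upper end and without replicate 2 of the drug at the lower.

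Il1a, whose product is released by injured epithelial and other cells as an alarm signal, had fewer reads per kilobase of exon than Il1b in every library of NSAIDs given alone. Its counts were 3 and 2 with honokiol plus indomethacin, 33 and 75 with indomethacin, 17 and 85 with diclofenac, 10 and 51 with aspirin, and 4 and 0 in controls. The NSAID libraries again lay above all others, at 0.368 to 2.02 CPM, against at most 0.126 CPM in the controls. The ratio to control in summed counts was 22.2 with indomethacin (95% Poisson interval 8.44 to 83.1), 18.2 with diclofenac (6.91 to 68.3) and 13.5 with aspirin (5.02 to 51.2), intervals that cover counting error only.

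No single drug moved Il1a past the edgeR threshold. Indomethacin gave a log2 fold change of 4.39 ± 1.14, diclofenac 4.14 ± 1.15 and aspirin 3.58 ± 1.18 (SE, edgeR adjusted p = 0.15, 0.055 and 0.06), and DESeq2 gave adjusted p-values of 0.0032, 0.0022 and 0.0084. The size of these values rested on single libraries. Without control replicate 1 the log2 fold changes were 8.66, 8.42 and 7.86 with indomethacin, diclofenac and aspirin. The control left in those fits held 0 Il1a counts, so Il1a values fitted without control replicate 1 are no measure of fold. Without diclofenac replicate 2 the diclofenac value was 2.51, and without aspirin replicate 2 the aspirin value was 2.44. The comparisons passed with edgeR when a diclofenac library was left out: indomethacin at 0.037 and 0.04 and aspirin at 0.028 and 0.029 (without diclofenac replicate 1 and 2), and diclofenac itself at 0.016 without its replicate 1. In the mean of the 3 NSAIDs against control, 6 libraries against 2, Il1a rose by 4.04 ± 1.07 in log2 units (SE, adjusted p = 0.04 by edgeR), with the adjusted p at 0.11 once Y reads were in the model. That call was lost without control replicate 1 (0.12, at a log2 fold change of 8.31) or 2 (0.14), indomethacin replicate 2 (0.079), aspirin replicate 2 (0.054) or either honokiol plus indomethacin library (0.069 and 0.071).

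Tnf stayed low in every group. Its counts were 3 and 4 with honokiol plus indomethacin, 8 and 32 with indomethacin, 5 and 17 with diclofenac, 29 and 16 with aspirin, and 4 and 5 in controls. The highest library, aspirin replicate 1, reached 1.07 CPM, and diclofenac replicate 1, at 0.113 CPM, lay below both controls (0.126 and 0.167 CPM). No comparison of Tnf with control passed the test. The log2 fold change was 1.82 ± 0.87 with indomethacin, 0.8 ± 0.91 with diclofenac and 2.24 ± 0.86 with aspirin (SE, edgeR adjusted p = 0.53, 0.61 and 0.087), and DESeq2 called none of them (0.68, 0.68 and 0.088). Single libraries set these values: the log2 fold change was 0.6 for indomethacin without indomethacin replicate 2, -0.36 for diclofenac without diclofenac replicate 2 and 1.35 for aspirin without aspirin replicate 1. With no filter on low counts Tnf passed with aspirin (adjusted p = 0.014 by edgeR). The 95% intervals of these log2 fold changes ran from -0.08 to 3.72 with indomethacin, from -1.19 to 2.79 with diclofenac and from 0.35 to 4.13 with aspirin, and the libraries of a drug group differed by factors of 3.68, 3.57 and 2.82. How far depth and how far the spread between libraries set these intervals was not tested.

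Il1rn, the antagonist gene, had at least 59 counts in every library. The CPM were 2.72 and 2.21 with honokiol plus indomethacin, 4.43 and 5.01 with indomethacin, 5.76 and 8.71 with diclofenac, 7.54 and 7.43 with aspirin, and 4.55 and 2.27 in controls. Diclofenac and aspirin libraries lay above both controls, whereas indomethacin replicate 1 lay below control replicate 1. Il1rn rose with aspirin by 1.13 ± 0.32 in log2 units (SE, adjusted p = 0.033 by edgeR). Its log2 fold changes with diclofenac and indomethacin were 1.08 ± 0.32 and 0.47 ± 0.32 (SE, adjusted p = 0.058 and 0.7 by edgeR). DESeq2 called Il1rn with aspirin (adjusted p = 0.014) and with diclofenac (0.027) and not with indomethacin (0.91). The indomethacin value was 1.07 without control replicate 1 and 0.069 without control replicate 2. The aspirin call was lost with a term for Y reads (0.06) and without aspirin replicate 1 (0.14), aspirin replicate 2 (0.062) or control replicate 2 (0.12, at a log2 fold change of 0.75), while diclofenac passed without control replicate 1 (0.037, at 1.7).

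Il10 was nearly undetected. It had 22 counts over all 10 libraries and at most 6 in any, in diclofenac replicate 1, and 3 libraries, 1 each of honokiol plus indomethacin, aspirin and control, held 0 counts, which allows up to 0.112, 0.11 and 0.1 CPM there. The gene did not pass the filter on low counts and was not tested in the main edgeR fit. The fits by DESeq2 and with no filter took it in, so their counts of calls are over 6 genes against 5. Summed over a group there were 4 counts for honokiol plus indomethacin, 4 for indomethacin, 11 for diclofenac, 1 for aspirin and 2 for control, and the ratio of diclofenac to control was 3.94 with a 95% Poisson interval of 0.859 to 36.6, which includes 1. Differences in Il10 were not detectable at this depth.

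Over the set, 5 of the 6 genes were tested in the main edgeR fit. Il6, Il1a and Tnf, at no more than 0.167 CPM in the honokiol plus indomethacin and control libraries, passed the filter on low counts only through the groups of NSAIDs given alone, so a count over the tested genes carries that selection and is given as a description. With indomethacin 0 of the 5 were called by edgeR, where 0.752% of all tested genes were called higher. An unadjusted p under 0.05 by edgeR was found for 3 of the 5, and for 1614 of the 16346 tested genes in either direction. DESeq2 called 3 cytokines higher, and 343 of the 32623 listed genes. With diclofenac 2 of the 5 rose (Il6 and Il1b), where 4.76% of all tested genes were called higher. With aspirin 3 of the 5 rose (Il6, Il1b and Il1rn), where 9.5% of all tested genes were called higher. The mean of the 3 NSAIDs gave 3 (Il6, Il1b and Il1a), at 6.11% of all tested genes. The 3 comparisons share the control libraries.

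Libraries of drug and control did not overlap, with the drug higher, in 4 of the 6 genes with indomethacin (Il6, Il1b, Il1a and Tnf). The same held for 5 under diclofenac (Il6, Il1b, Il1a, Il1rn and Il10) and 5 under aspirin (Il6, Il1b, Il1a, Il1rn and Tnf). Il10, at 6 and 5 counts under diclofenac against 2 and 0 in controls, did not pass the filter on low counts. Among all tested genes, which leave out Il10, the shares were 20.1% for indomethacin, 27% for diclofenac and 30.4% for aspirin. The selection of Il6, Il1a and Tnf by the filter bears on these counts as well. Within a drug group the agonists were uneven between libraries by factors of 1.51 to 4.24 for Il1b, 2.05 to 3.32 for Il6 and 2.09 to 5.25 for Il1a, and in each NSAID group the library with more Il1b also had more Il6 and more Il1a. Tnf differed between libraries by factors of 2.82 to 3.68, and with aspirin it was higher in replicate 1, whereas the other 3 were higher in replicate 2. For Il1rn the factors were 1.01 to 1.51.

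**Figure D2:**
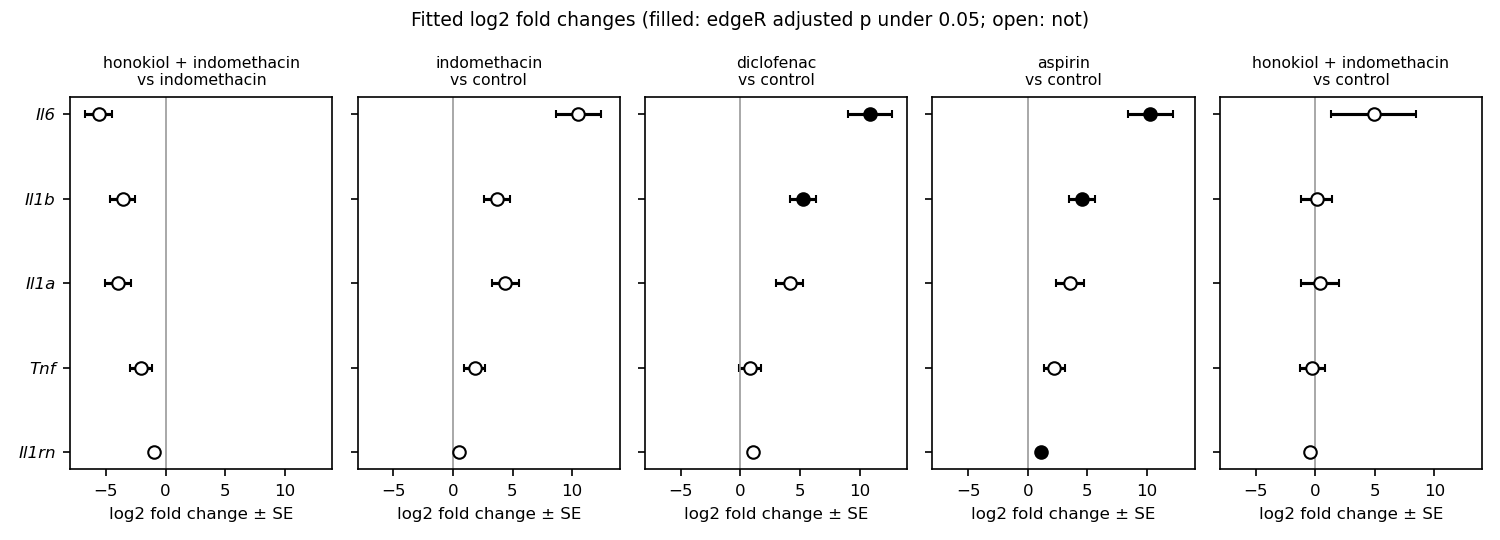
Fitted log2 fold changes (points) with standard errors (bars) of the 5 tested cytokine genes in 5 comparisons of the edgeR model; filled points have an adjusted p under 0.05. Il6, Il1b and Il1a lie well above 0 with each NSAID and below 0 for honokiol plus indomethacin against indomethacin. Filled points are Il6 and Il1b with diclofenac, and Il6, Il1b and Il1rn with aspirin. All other points are open, including all with indomethacin against control and all for honokiol plus indomethacin. Fitted Il6 values against control depend on 0 control counts and are no measure of fold.

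Honokiol before indomethacin was compared with indomethacin alone. The labels give 0.5 h for the former group and 4 h for the latter. If these are sampling times, honokiol and time cannot be told apart as sources of a difference. All 5 tested genes had lower values in both honokiol plus indomethacin libraries than in either indomethacin library, a pattern shown by 23.6% of all tested genes. Il6, Il1a and Tnf passed the filter on low counts only through the groups of NSAIDs given alone. The count carries that selection and is given as a description. Il6 counts summed to 6 with honokiol plus indomethacin and 397 with indomethacin, and their ratio per library size was 0.0196 (95% Poisson interval 0.00716 to 0.0431). For Il1b the ratio was 0.0823 (34 against 536 counts, 0.0564 to 0.116) and for Il1a 0.0601 (5 against 108 counts, 0.0191 to 0.145).

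None of the 5 passed the edgeR test in that comparison, where 0.3% of all tested genes were called lower. All 5 had an unadjusted p under 0.05 by edgeR, as did 1552 of the 16346 tested genes in either direction. The selection by the filter bears on this count as well. The log2 fold changes were -5.61 ± 1.15 for Il6, -3.61 ± 1.08 for Il1b, -3.99 ± 1.11 for Il1a, -2.08 ± 0.9 for Tnf and -0.94 ± 0.32 for Il1rn (SE, edgeR adjusted p = 0.18, 0.39, 0.24, 0.5 and 0.39). DESeq2 called 2, Il6 (adjusted p = 0.00038) and Il1a (0.0095), but not Il1b (0.061). Il6 passed with edgeR without diclofenac replicate 1 (0.047) or 2 (0.035). Both honokiol plus indomethacin libraries held Y reads and only 1 of the indomethacin libraries did. Indomethacin replicate 1, which held them too, had 3.43 CPM of Il6, against 0.162 and 0.0374 with honokiol plus indomethacin. For Il1b it had 5.66 CPM, against 0.939 and 0.187 with honokiol plus indomethacin. These values rest on 1 indomethacin library. With a term for Y reads the log2 fold changes were -5.01 for Il6, -3.65 for Il1b, -3.74 for Il1a, -1.18 for Tnf and -1.15 for Il1rn (edgeR adjusted p = 0.37, 0.49, 0.43, 0.7 and 0.35).

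Set against the controls, the honokiol plus indomethacin libraries overlapped the control libraries in 5 of the 6 genes, the exception being Il6, which was higher. Of all tested genes 18.3% were higher in both honokiol plus indomethacin libraries than in either control and 19.4% were lower. The others, a majority, overlapped as well. None of the 5 tested genes was called by edgeR or DESeq2. None had an unadjusted p under 0.05 by edgeR, whereas Il6 had an unadjusted p of 0.029 by DESeq2 (adjusted p = 0.97, against 0.83 by edgeR). Of all tested genes 0% were called by edgeR in either direction (816 genes at an unadjusted p under 0.05, and 16 called by DESeq2). The log2 fold change was 0.12 ± 1.29 for Il1b, 0.4 ± 1.6 for Il1a, -0.25 ± 1.05 for Tnf and -0.47 ± 0.33 for Il1rn (SE, edgeR adjusted p = 0.99, 0.96, 0.96 and 0.83). The 95% interval for Il1b reached from -2.99 to 3.23 on the log2 scale, so a change of several fold in either direction was not detectable, and that for Il1rn from -1.19 to 0.25. Il6 had 6 counts against 0, a ratio of 2.14 over the floor of 3 counts that makes no allowance for counting error in the 6. Honokiol plus indomethacin replicate 2, at 0.0374 CPM, lay below the 0.0947 and 0.1 CPM that 0 counts allow in the controls.

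The balance between IL-1 antagonist and agonist was taken within each library as reads per kilobase of exon of Il1rn over those of Il1b, a ratio that does not depend on library scaling. This ratio was 1.98 and 8.08 with honokiol plus indomethacin, 0.536 and 0.401 with indomethacin, 0.348 and 0.202 with diclofenac, 1.1 and 0.255 with aspirin, and 3.79 and 6.65 in controls. Il1rn was thus the more abundant transcript per length in all honokiol plus indomethacin and control libraries, and Il1b in 5 of the 6 libraries of NSAIDs alone, with aspirin replicate 1 near 1 (95% counting interval 0.875 to 1.38). This comparison of transcripts was chosen after the values were seen and is a description with no test.

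**Figure D3:**
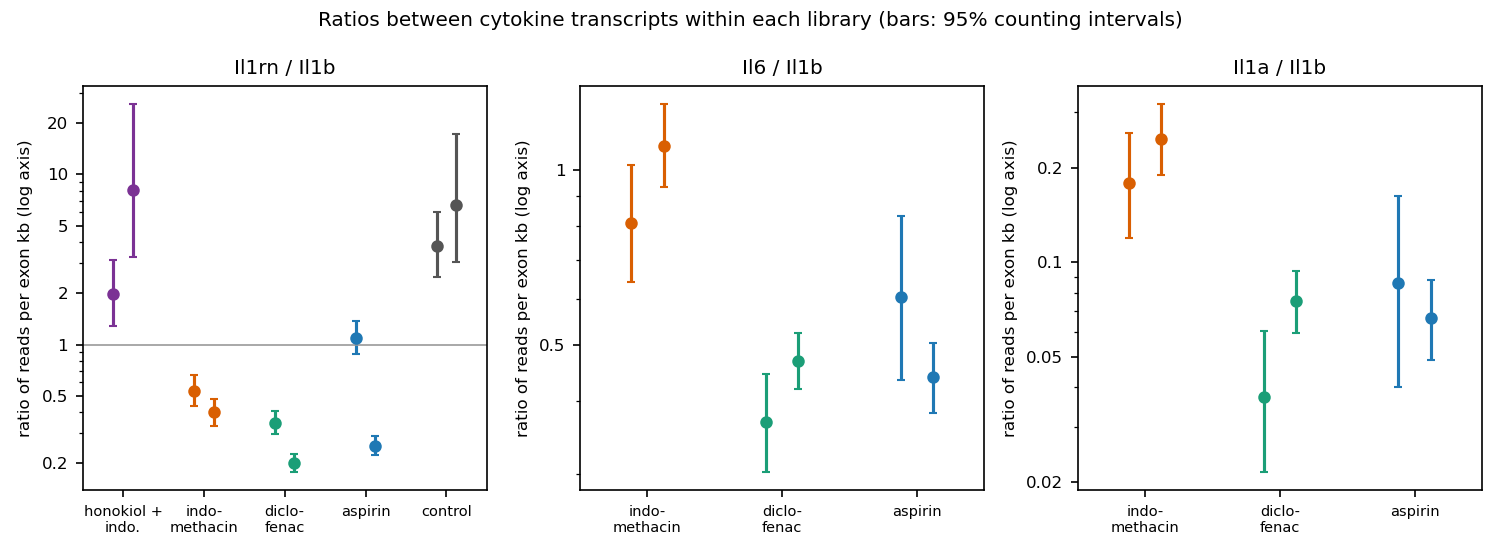
Ratios of reads per kilobase of exon between cytokine transcripts within each library, on log axes, for Il1rn over Il1b in all 5 groups and for Il6 and Il1a over Il1b in the 3 NSAID groups; points are libraries (replicate 1 left, replicate 2 right) and bars are 95% counting intervals. Il1rn over Il1b lies between 1.98 and 8.08 with honokiol plus indomethacin and in controls, and between 0.202 and 1.1 with NSAIDs alone.

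The makeup of the agonist transcripts is given side by side for the drugs, whose doses differ. All ratios here share Il1b as denominator, so they are not separate observations. They were chosen after the values were seen and are a description with no test. Per kilobase of exon, Il6 stood to Il1b at 0.809 and 1.1 with indomethacin, 0.369 and 0.469 with diclofenac and 0.605 and 0.44 with aspirin. Il1a stood to Il1b at 0.178 and 0.247 with indomethacin, 0.0373 and 0.0751 with diclofenac and 0.0857 and 0.0663 with aspirin. Both indomethacin libraries had higher values of both ratios than the 4 others, with 95% counting intervals of 0.642 to 1.02 and 0.933 to 1.29 for Il6 over Il1b and of 0.12 to 0.259 and 0.19 to 0.318 for Il1a over Il1b. The interval of aspirin replicate 1 reached up to 0.832 for Il6 and 0.163 for Il1a, and so overlapped that of indomethacin replicate 1. Tnf stood to Il1b at 0.0328 and 0.0799 with indomethacin, 0.00831 and 0.0114 with diclofenac and 0.188 and 0.0158 with aspirin.

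Per kilobase of exon the order of the genes also differed by group. With honokiol plus indomethacin and in controls, Il1rn came first, at 1.21 ± 0.178 and 1.67 ± 0.789 CPM per kb. With indomethacin, Il1b (5.09 ± 1.46 CPM per kb) and Il6 (5.01 ± 2.44) overlapped and both stood above Il1rn (2.31 ± 0.199; SD, n = 2 each). With diclofenac, Il1b (14.7 ± 9.23 CPM per kb) exceeded 94.5% of all listed features and Il6 (6.46 ± 4.91) exceeded 87.5%, and with aspirin the corresponding values were 8.84 ± 7.73 CPM per kb and 91.5% for Il1b and 4.17 ± 3.01 CPM per kb and 82.1% for Il6 (SD, n = 2 each). In controls, Il1b exceeded 56.7% of features.

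Neighbouring genes gave a local comparison. Within 100 kb of Il1b and Il1a lay 3 further features each, of which 1 and 2 were tested, and within 100 kb of Il6 lay 2, of which 1 was tested. Around Il1rn there were 5 and around Il10 3, with 1 tested beside each. None of these was called in any comparison, which says little at 1 or 2 tested genes beside each. Around Tnf, in a gene-dense stretch with 23 other features within 100 kb, 17 were tested. Of these 0 were called with indomethacin, 1 was called higher with diclofenac and 3 were called higher with aspirin. The shares of all tested genes called higher were 0.752%, 4.76% and 9.5% with these drugs.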

How the data were processed

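RNA of rat gastric mucosa was sequenced in 10 libraries in 5 groups of 2. The authors deposited whole-number counts per Ensembl gene and a summed exon length, in the column layout of featureCounts per the file headers; each library has its own total, so the values were taken as raw counts. Per the submitters' processing notes, the tools were HISAT2 2.1.0, cutadapt 1.16, FastQC 0.11.7, featureCounts, SAMtools and DESeq2. The sources used here name no genome build, strand setting or treatment of multiply mapped reads, so reads of antisense partners cannot be told apart. Empty closing lines were skipped.

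Genes were tested with edgeR 4.0.16 in R 4.3.3 (TMM, filterByExpr with minimum count 10 and minimum total 15, robust quasi-likelihood F test, group as the only term, 10 libraries in 1 fit, 5 residual degrees of freedom), adjusted over 16346 genes. The script was tested on simulated data. SE is the absolute log2 fold change over the square root of F. A floor of 3 counts per group replaced group sums of 0. Poisson and binomial intervals are exact, at 95%, and cover counting error only. Alternatives were RLE factors, no filter, a stricter filter (1 CPM and 10 counts in 2 libraries), DESeq2 1.42.0, fits of the compared groups alone, a replicate block, a term for Y reads (over 1000 counts) and each library left out. Members and lists were chosen with earlier results of these data known. All 6 genes are named. The lists of pathway genes and cell markers, and the rule for genes of like pattern, need gene symbols and were not used here. The transcript ratios within libraries and the promoter motifs were chosen after values were seen.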

Additional observations from a re-analysis of the deposited data

How the results depend on the processing

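Over 508 refits of the 5 tested cytokines, 397 kept direction and side of the threshold, 59 lost a call, 45 gained one and 7 turned direction, all 7 in uncalled values. With a library left out, the log2 fold change of Tnf with diclofenac lay between -0.36 (without diclofenac replicate 2) and 1.48. For honokiol plus indomethacin against control, Il1b lay between -1.49 (without honokiol plus indomethacin replicate 1; -0.49 without control replicate 2) and 1.31, Il1a between -0.52 (without control replicate 2) and 4.66, Il1rn between -0.87 and 0.13 (without control replicate 1), and Tnf between -0.56 and 0.028 (without honokiol plus indomethacin replicate 1), while Tnf was at 0.48 with a term for Y reads. The 4.66 of Il1a was fitted without control replicate 1, against a control with 0 Il1a counts, and is no measure of fold. The cause of the turns in direction was not tested. RLE factors and the stricter filter changed no cytokine call. Of the 30 group means, 1 moved beyond its SD per total counts, Il1rn with aspirin (8.26 against 7.49 CPM).

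The cytokines called with indomethacin numbered 0, against 3 by DESeq2, 3 with no filter, 3 in the compared groups alone and 1 with the replicate block (0 to 2 with a library left out). With diclofenac there were 2, against 4 by DESeq2, 4 with no filter, 0 in the compared groups alone and 0 with a term for Y reads (0 to 2). With aspirin there were 3, against 5 with no filter and 0 with Y reads (0 to 4), and with the mean of the 3 NSAIDs 3, against 1 in the compared groups alone and 0 with Y reads (0 to 3). For honokiol plus indomethacin against indomethacin there were 0, against 2 by DESeq2, 4 with no filter, 2 in the compared groups alone and 1 with the replicate block (0 to 1). Against control there were 0 by edgeR, DESeq2 and every other alternative, although Il6 had an unadjusted p of 0.029 by DESeq2, 0.0031 with no filter and 0.023 with the replicate block (0.22 by edgeR).

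All genes called with indomethacin numbered 127, against 376 by DESeq2, 834 with no filter and 262 in the compared groups alone (1 to 200 with a library left out). With diclofenac there were 1286, against 2650 with no filter, 527 in the compared groups alone and 383 with Y reads (319 to 1434). With aspirin there were 2903, against 1759 in the compared groups alone and 683 with Y reads (462 to 3606), and for the mean of the 3 NSAIDs 1819, against 3137 with no filter and 696 with Y reads (229 to 2512). Honokiol plus indomethacin against indomethacin gave 56, against 243 by DESeq2, 699 with no filter, 250 in the compared groups alone and 35 with Y reads (0 to 118), and against control 0, against 16, 153 and 3 (0 to 1).

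Replicate numbers were not taken to pair libraries: replicate differences of the groups compared correlated over genes at -0.134 to 0.298. With the replicate block, calls over all genes were 123 with indomethacin, 935 with diclofenac, 2106 with aspirin, 1256 for the mean of the 3, 71 for honokiol plus indomethacin against indomethacin and 0 against control. The block ended the Il1b calls with diclofenac (adjusted p = 0.065 by edgeR), aspirin (0.062) and the mean of the 3 (0.066), and brought past the threshold Il1a with diclofenac (0.047), Il6 with indomethacin (0.002) and Il6 in honokiol plus indomethacin against indomethacin (0.007). In the compared groups alone Il1b was at 0.059 with diclofenac and 0.12 with aspirin. A crossed pairing, added after seeing the data, gave 1183 with diclofenac and 3303 with aspirin; under it Il1b was at 0.073 and 0.062 and Tnf passed with aspirin (0.037). Counts were lowest for Il10 and Tnf, at no more than 6 and 32 in a library.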
